A study of Mus musculus with 8 samples.

Results

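The enteroendocrine cells of mouse colon tissue were the 119 cells of the tissue epithelial libraries that carried RNA of the endocrine programme. A cell was taken when its barcode held at least 500 genes, at most 10% of its UMIs came from mitochondrial genes, and at least 1 UMI was seen for Epcam, a surface protein of epithelial cells, and for at least 3 of the 7 genes Chga, Chgb, Neurod1, Fev, Insm1, Pcsk1 and Scgn. Of 4399 Epcam cells in tissue replicate 1 and 4100 in tissue replicate 2, 46 and 73 met the rule, which makes 119 of 8499 tissue cells and 119 of all 77108 cells that passed the filters in the 8 libraries. The cells were thus chosen by their own counts of these 8 genes, so the levels of those genes, and every difference between the chosen cells and the other cells of tissue, are given as description without a test.

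The tissue libraries came from crypts of the colon of C57BL/6 mice, which in this study were male and 6 to 12 weeks old, without transgene or treatment named in the labels. Crypts were shaken off with EDTA and dissociated with TrypLE, so cells outside the crypt fraction were sampled only as far as they came along. The epithelium of colon assembloids (organoids embedded with cultured primary stromal cells and kept in medium without surrogate Wnt, CHIR-99021, R-spondin 1 and noggin) and of colon organoids (epithelium alone) was profiled as well, with 2 libraries each, and 2 libraries of assembloid stroma complete the series. Assembloids were digested with Liberase TL and DNase I before TrypLE, and organoids with TrypLE alone. Tissue and assembloids thus differ in dissociation as well as in origin, and the 2 cannot be told apart. The study describes the libraries of a group as biological replicates, and the labels do not tie them to single animals.

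Enteroendocrine cells are scattered hormone-producing cells of the gut lining, made from the same crypt stem cells as absorptive and goblet cells. They store peptide hormones or serotonin in secretory granules, sense nutrients, microbial products and stretch, and release their content when electrically excited. In the colon the main kinds are L cells, which make glucagon-like peptides, peptide YY and Insl5, enterochromaffin cells, which make serotonin, and D cells, which make somatostatin.

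The regulatory sequence in front of the genes that separate L cells from enterochromaffin cells is shown here because the hormone classes described further on rest on these genes. Gcg encodes proglucagon, the precursor of glucagon-like peptides, Pyy encodes peptide YY, Insl5 encodes an insulin-like peptide, and Tph1 encodes tryptophan hydroxylase, the rate-limiting enzyme of serotonin synthesis. Each line gives the RefSeq sequence from 250 bases before to 50 bases after an annotated start, 5′ to 3′ along the gene, in build GRCm38.p6. All of these genes lie on the minus strand, at chr2:62483604-62483903 for Gcg, chr11:102107727-102108026 for Pyy, chr4:103026679-103026978 for Insl5 and chr7:46667328-46667627 for Tph1. Where RefSeq has 2 starts (Pyy, Insl5 and Tph1) the downstream one is shown. Capitals mark matches to the E-box CAGNTG, searched on both strands as CAGNTG and CANCTG, the core that basic helix-loop-helix factors such as Neurod1 and Neurog3 bind.
Gcg: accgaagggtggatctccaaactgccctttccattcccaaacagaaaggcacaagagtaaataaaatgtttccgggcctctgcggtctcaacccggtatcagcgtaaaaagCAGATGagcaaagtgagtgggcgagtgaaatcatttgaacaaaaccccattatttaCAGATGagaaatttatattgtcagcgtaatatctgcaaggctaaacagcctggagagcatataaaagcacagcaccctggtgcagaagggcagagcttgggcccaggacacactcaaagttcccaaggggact
Pyy: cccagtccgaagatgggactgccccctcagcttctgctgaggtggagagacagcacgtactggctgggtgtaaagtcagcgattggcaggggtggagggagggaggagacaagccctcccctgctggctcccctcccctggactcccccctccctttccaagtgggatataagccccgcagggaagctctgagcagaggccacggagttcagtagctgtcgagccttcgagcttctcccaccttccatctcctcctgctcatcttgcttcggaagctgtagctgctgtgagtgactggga
Insl5: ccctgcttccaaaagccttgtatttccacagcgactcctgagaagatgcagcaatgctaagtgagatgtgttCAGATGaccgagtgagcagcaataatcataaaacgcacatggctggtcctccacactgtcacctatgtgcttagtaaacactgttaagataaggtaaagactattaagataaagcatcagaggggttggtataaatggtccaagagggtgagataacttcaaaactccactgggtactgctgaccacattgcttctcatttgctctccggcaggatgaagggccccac
Tph1: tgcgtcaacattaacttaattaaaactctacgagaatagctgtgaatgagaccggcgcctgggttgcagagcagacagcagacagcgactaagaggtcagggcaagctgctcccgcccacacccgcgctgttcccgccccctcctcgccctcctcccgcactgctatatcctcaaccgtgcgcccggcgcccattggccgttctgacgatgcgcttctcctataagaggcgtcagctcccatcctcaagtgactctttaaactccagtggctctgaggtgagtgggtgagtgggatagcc
The Gcg window held 2 such matches and the Insl5 window 1, whereas none stood in these windows of Pyy and Tph1. A match is common in promoters, since 51.4% of 32851 windows of this length held one. Among the peptide hormone genes, 12 of 18 with a window held a match in at least 1 of their windows, against 54.6% of 27025 genes. In GRCm38, Gcg lies at chr2:62474530-62483650, Pyy at chr11:102106676-102107832, Insl5 at chr4:103017872-103026842 and Tph1 at chr7:46644641-46672537.

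The enteroendocrine cells were deeper than their neighbours. Their median depth was 9136 UMIs in tissue 1 and 6231 in tissue 2, against 5109 and 4061 in the other Epcam cells of the same libraries, and their median number of genes was 3502.5 and 2768 against 2293 and 1952. The mitochondrial share was 4.12% and 4.96% in the chosen cells and 3.03% and 6.17% in the others. Summed over cells, the endocrine fraction held 550377 UMIs in tissue 1 and 582094 in tissue 2. Of all barcodes in the tissue matrices, 38.7% and 25.4% passed the filters, the lowest shares among the 8 libraries, which ranged up to 96.1%. No barcode of a tissue enteroendocrine cell recurred among the enteroendocrine cells of another library, and 1 barcode of tissue 1 was also a passing barcode of assembloid 2. No doublet caller was run, and counts without the cells in the highest 5% of UMIs are given among the processing alternatives.

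Most members passed the rule with genes to spare. In tissue 1, 7 cells had exactly 3 of the 7 genes, 6 had 4, 15 had 5, 14 had 6 and 4 had all 7, and in tissue 2 the numbers were 18, 19, 14, 18 and 4. The cells just inside the threshold, with exactly 3 genes, had a median of 11 UMIs of the rule genes in tissue 1 and 19.5 in tissue 2, at median depths of 4017 and 3876 UMIs. Just outside it lay 22 and 77 cells with exactly 2 of the genes, with a median of 3.5 and 3 UMIs of them at depths of 10456 and 4084.

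The label was checked against markers of the other cell types that crypts hold. Summed over 9 goblet markers, the level was 5807 and 3810 CPM (UMIs scaled to a total of 1000000 in the summed cells) in enteroendocrine cells of tissue 1 and 2, against 21357 and 23955 in the other Epcam cells. The 8 colonocyte markers summed to 723 and 900 CPM against 2778 and 3396. Of 7 immune markers 6 were at 0 in both libraries, and the sum was 1.82 and 3.44 CPM. The summed goblet and colonocyte lists were lower in the chosen cells, although the colonocyte marker Krt20 went the other way, with 461 and 397 CPM in enteroendocrine cells against 91.8 and 140 in the other cells. Goblet RNA was present in nearly all members. Muc2, the main mucin of goblet cells, had at least 1 UMI in 43 of 46 and 70 of 73 enteroendocrine cells, and 1 cell of tissue 1 held 73.3% of the Muc2 UMIs of that library's endocrine fraction. Whether such counts come from free RNA, doublets or the cells themselves was not tested.

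**Figure D1:**
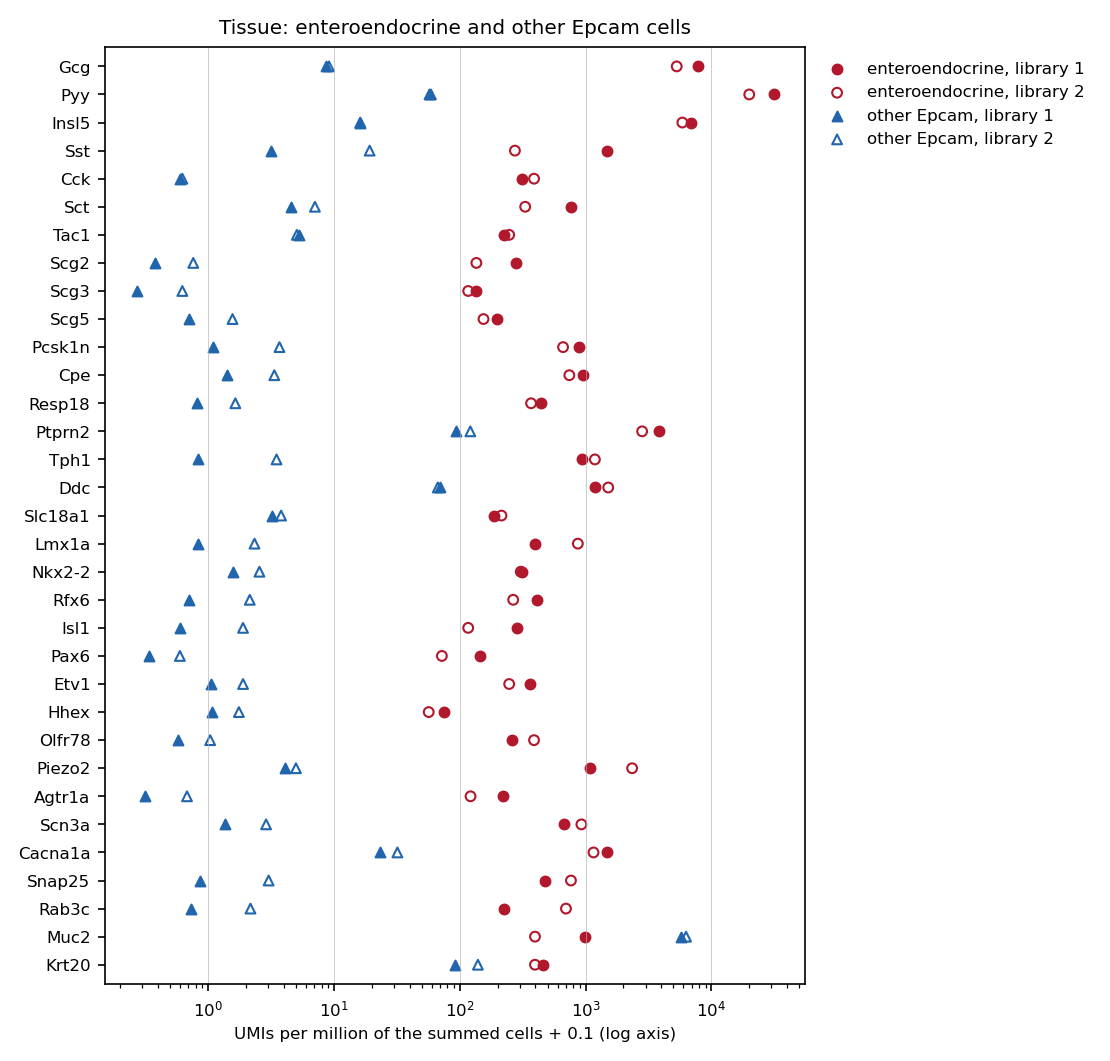
Level of hormone, granule, serotonin, transcription factor, receptor and excitability genes, with Muc2 and Krt20 as markers of other cells, in enteroendocrine cells and in the other Epcam cells of tissue, as CPM of summed UMIs plus a small constant on a log axis. Filled symbols are tissue 1 and open symbols tissue 2. Gcg, Pyy and Insl5 stood at 5305 CPM or more in the endocrine fraction and at 59.0 CPM or less in the other cells of both libraries.

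Against the other Epcam cells, 519 of 14034 genes with enough UMIs (3.70%) were at least 4-fold higher in the enteroendocrine cells of both libraries. Being past the fold also needed at least 20 UMIs in the endocrine fraction of each library. Some of the 14034 genes held fewer, such as Car9 with 3 and 3. This share and the list counts below thus include genes that could not be past the fold. The comparison is a description, since the cells were selected on endocrine genes of the same counts. Of 19 peptide hormones, 9 had enough UMIs and 7 were past this fold, namely Gcg, Pyy, Insl5, Sst, Cck, Sct and Tac1. Gcg stood at 7806 CPM in tissue 1 and 5305 in tissue 2, against 8.61 and 9.06 CPM in the other cells. Pyy reached 31211 and 19992 CPM, against 57.4 and 59.0. Insl5 was at 6937 and 5880 CPM, against 15.9 and 16.1. Each of these L cell hormones was somewhat higher in tissue 1. Sst, which encodes somatostatin, differed more between the libraries, with 1481 CPM in tissue 1 and 275 in tissue 2 (3.05 and 19.2 in the other cells). It was seen in 10 of 46 and 5 of 73 cells, and 1 cell held 56.8% of its UMIs in tissue 1 and 46.9% in tissue 2. Cck, which encodes cholecystokinin, was at 311 and 390 CPM and at 0.498 and 0.527 in the others. Sct, the secretin gene, was at 772 and 332 CPM against 4.48 and 6.98, and Tac1, the precursor of substance P, at 223 and 247 CPM against 5.17 and 4.99. Nts, Gip, Gast, Penk, Calca and Vip had no UMI in the enteroendocrine cells of either library. Ghrl, the ghrelin gene, had 67 UMIs in 5 cells of tissue 1 and 9 UMIs in 2 cells of tissue 2.

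Hormone UMIs were also seen at a low level in cells of other types, and whether they come from free RNA or the cells themselves was not tested. Colonocytes, taken as Epcam cells with at least 3 of 6 colonocyte markers and none of the 7 rule genes, numbered 653 in tissue 1 and 1082 in tissue 2 and had median depths of 18198 and 12237 UMIs. Pyy had at least 1 UMI in 71.7% of enteroendocrine cells of tissue 1 (95% exact binomial interval 56.5 to 84.0%) and 47.9% of tissue 2 (36.1 to 60.0%), but also in 38.3% and 35.5% of colonocytes. For Gcg the shares were 39.1% and 20.5% of enteroendocrine cells, against 7.50% and 6.56% of colonocytes. Tph1 was seen in 32.6% and 60.3% of enteroendocrine cells and in 0.459% and 1.20% of colonocytes. Because Pyy was also seen in many colonocytes, a minimum level was used to define hormone classes. Intervals here and elsewhere cover counting error only.

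The enteroendocrine cells were sorted into classes by 4 hormone genes. Cells with at least 20 UMIs of Sst per 10000 were called D-type. Of the rest, cells with at least 20 UMIs of Gcg, Pyy and Insl5 together per 10000 and no Tph1 were called L-type, and cells with at least 1 UMI of Tph1 and less of the L genes were called EC-type. In tissue 1 there were 17 L-type, 15 EC-type and 7 D-type cells, and 7 cells fell into no class. Tissue 2 held 15 L-type, 44 EC-type and 3 D-type cells, with 11 in no class. L-type cells thus made up 37.0% (23.2 to 52.5%) of the endocrine fraction in tissue 1 and 20.5% (12 to 31.6%) in tissue 2, and EC-type cells 32.6% (19.5 to 48.0%) and 60.3% (48.1 to 71.5%). The balance of the 2 main classes differed between the libraries, and the 2 libraries allow no test of it against the spread.

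L cell hormones and serotonin synthesis were found in separate cells at a threshold of 20 per 10000, with a few exceptions at lower ones. None of the 119 cells had L genes at 20 per 10000 together with a Tph1 UMI, a count of 0 that allows a share of up to 2.52% of cells with both detected. At an L threshold of 5 per 10000, 1 of 46 cells in tissue 1 and 2 of 73 in tissue 2 had both. At 1 UMI of each gene, Tph1 was seen together with Gcg in 3 cells and together with Pyy in 17 of the 119, and at 5 UMIs of each gene in none with either. Within L-type cells the 3 L genes together ranged from 24.1 through a median of 323 to 2987 UMIs per 10000 in tissue 1 and from 23.6 through 377 to 2965 in tissue 2. The highest level of these genes in any EC-type cell was 5.98 per 10000 in tissue 1 and 13.6 in tissue 2. Conversely no L-type cell had a Tph1 UMI, by definition, while EC-type cells had a median of 15.7 and 18.0 Tph1 UMIs per 10000. The L genes were very unevenly spread, as 1 cell held 46.6% of all Gcg UMIs of the endocrine fraction of tissue 1 and 1 cell 39.4% of those of tissue 2.

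**Figure D2:**
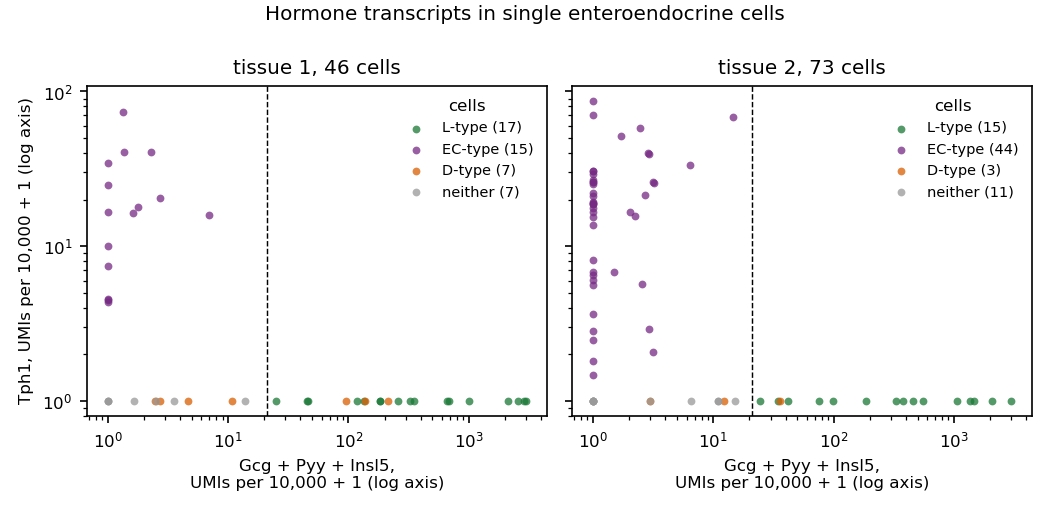
Each dot is 1 enteroendocrine cell of tissue 1 (left) or tissue 2 (right), with UMIs of Gcg, Pyy and Insl5 per 10000 plus 1 on the x axis and UMIs of Tph1 per 10000 plus 1 on the y axis, both on log scales. Colours give the hormone class and the dashed line the threshold of 20 per 10000. No cell lies to the right of the line and above the floor of the y axis at the same time.

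Within the classes the hormones were combined. Counting at least 1 UMI over all 119 cells, Gcg was found in 33 cells, 31 of which also had Pyy and 26 Insl5, and 36 of 39 cells with Insl5 had Pyy. Of the 20 cells with Cck, all had Pyy, 16 had Gcg and none had Tph1. Tac1 was found in 36 cells, 30 of them with Tph1, out of 59 cells with Tph1. Sct was found on both sides, with 20 of its 40 cells carrying Tph1 and 30 carrying Pyy. At 5 UMIs of each gene, 8 of 14 cells with Tac1 had Tph1, and of 17 cells with Sct 9 had Tph1 and 8 had Pyy. The low level of Pyy in colonocytes and in the other Epcam cells, given above, is part of the counts that involve Pyy. Cck RNA was concentrated, since 1 cell held 77.0% of the Cck UMIs of L-type cells in tissue 1 and 45.3% in tissue 2.

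Genes of the secretory granules were high in the endocrine fraction. Of 14 genes for granule content and prohormone processing, 12 had enough UMIs and all 12 were at least 4-fold above the other Epcam cells in both libraries. Cpe, a carboxypeptidase that trims prohormones, was at 961 and 744 CPM against 1.32 and 3.27. Pcsk1n, which encodes proSAAS, an inhibitor of a prohormone convertase, was at 883 and 663 CPM against 0.996 and 3.60. Ptprn2, a membrane protein of dense-core granules, was at 3817 and 2817 CPM against 92.9 and 121. Of the 11 serotonin genes 5 were past the fold. Tph1 stood at 943 and 1187 CPM against 0.736 and 3.41, and Ddc, which makes serotonin from 5-hydroxytryptophan, at 1190 and 1515 CPM against 69.1 and 67.0. Slc18a1, a vesicular monoamine transporter, was at 187 and 215 CPM against 3.12 and 3.71. Maoa, which degrades serotonin, went the other way, with 70.9 and 92.8 CPM in the endocrine fraction and 355 and 386 in the other cells.

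Of 23 transcription factors linked to endocrine fate, 21 had enough UMIs and 14 were past the fold. Nkx2-2 was at 311 and 306 CPM against 1.49 and 2.47, and Rfx6 at 411 and 266 CPM against 0.606 and 2.05, both regulators of endocrine differentiation in gut and pancreas. Lmx1a, a homeodomain factor of enterochromaffin cells, was at 400 and 869 CPM against 0.736 and 2.24. Neurog3, which starts endocrine fate in crypt progenitors and is shut off afterwards, had only 4 and 2 UMIs in the endocrine fraction.

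Of 29 receptors and sensors, 15 had enough UMIs and 8 were past the fold, and of 26 genes of excitability and exocytosis 22 had enough and 17 were past it. Piezo2, a mechanically gated ion channel, was at 1077 and 2347 CPM against 4.03 and 4.91. Olfr78, an olfactory-type receptor for short-chain fatty acids, was at 262 and 390 CPM against 0.476 and 0.942. Ffar2, another short-chain fatty acid receptor, was at 142 and 120 CPM but also at 24.9 and 27.6 in the other cells. These receptors of microbial products thus differed in how far they were restricted to the endocrine fraction. Scn3a, a voltage-gated sodium channel, was at 680 and 928 CPM against 1.26 and 2.80, and Snap25, a core protein of vesicle fusion, at 480 and 766 CPM against 0.758 and 2.94. Beyond the lists, the gene with the highest smaller ratio of the libraries was Nxph1, a secreted neurexin ligand, at 501 and 524 CPM against 0.303 and 0.804. Among the lists of other cell types and states, Elavl4 of the enteric neuron and glia list, an RNA-binding protein of neurons, was past the fold at 99.9 and 46.4 CPM against 0.152 and 0.443. The goblet, colonocyte, tuft, stem cell, cycling, immune, stromal and hypoxia lists had no member past it at the minimum of 20 UMIs in each endocrine fraction. Below that minimum Bnip3 (12 and 13 UMIs), Alox5ap (8 and 6) and Pecam1 (8 and 9) were over 4-fold higher in both libraries. Elavl4 was not alone in its list, where 3 genes had enough UMIs. Their smaller log2 ratio of the libraries had a median of 6.40. Uchl1 of the same list lay below the minimum, with 17 and 15 UMIs.

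The second question was how L-type and EC-type cells of tissue differ beyond the genes that define them. UMIs were summed per library and class and tested with edgeR's quasi-likelihood test with the library as a block, and a gene was called at a Benjamini-Hochberg adjusted p under 0.05. L-type cells had 108 of 4340 genes higher (2.49%) and EC-type cells 164 (3.78%), which includes 4 genes on each side that define the cells or their classes and are not counted below. Of the hormones tested, Cck was higher in L-type and Tac1 in EC-type cells. Cck had no UMI in the EC-type sums and Tac1 1 UMI in each L-type sum, so each entered the test through 1 class alone. Of 17 transcription factors tested, 5 were higher in L-type cells and 3 in EC-type cells. Of 9 receptors tested, 4 were higher in L-type and 2 in EC-type cells, a count not read as a split since Avpr1b, Agtr1a and Sstr5 had at most 1 UMI in each EC-type sum and entered the test through the L-type sums alone. Of 17 genes of excitability and exocytosis, 1 was higher in L-type and 5 in EC-type cells. The same filter held for the other lists. Of 7 serotonin genes tested other than Tph1, none was higher in L-type and 3 in EC-type cells. Of these, Lmx1a and Slc18a1 had at most 5 UMIs in each L-type sum and entered the test through the EC-type sums alone. The median log2 fold change (L-type minus EC-type) was 0.43 over the transcription factors, 0.22 over the receptors, −0.35 over the excitability genes, −1.08 over the serotonin genes and −0.0013 over all genes tested. Some markers of other cells differed between the classes. Of 4 colonocyte markers tested, Krt20 (870.5 and 621 CPM against 147 and 48.9) and Ceacam20 were higher in EC-type cells and 2 were not called. Of 7 goblet markers tested, Fcgbp was higher in L-type cells and 6 were not called. Uchl1, of 2 neuron and glia markers tested, was higher in L-type cells. It had 16 and 13 UMIs against 1 and 1 and entered the test through the L-type sums alone. Of 8 hypoxia and stress genes tested, Egr1 was higher in EC-type cells, at 1500 and 1841 CPM against 576 and 935, and 7 were not called. The part of these markers and of Egr1 in the other differences was not tested.

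The 8 listed transcription factors called stood on both sides, and 9 were not called. Lmx1a, counted with the serotonin genes, had 2 UMIs in the L-type cells of each library and 184 and 462 UMIs in EC-type cells, or 9.22 and 12.2 CPM against 965 and 1311. It entered the test through the EC-type sums alone and is given as values. Isl1, a LIM-homeodomain factor of several endocrine cell kinds, showed the opposite, with 63 and 54 UMIs in L-type cells and none in EC-type cells, so that it was at least 55.7-fold higher in L-type cells over the summed UMIs at a floor of 3 counts over the group. It was present in 14 of 17 and 10 of 15 L-type cells. Etv1 was at 737 and 746 CPM in L-type and 47.2 and 51.1 CPM in EC-type cells (log2 fold change 4.06, SE 0.265, adjusted p = 6.2e-04 by edgeR). Pax6, a regulator of the proglucagon gene, was at 226 and 171 CPM in L-type and 52.4 and 19.9 CPM in EC-type cells (log2 fold change 2.71, SE 0.389, adjusted p = 0.0108 by edgeR). On the EC side, Runx1t1 was at 603 and 619 CPM against 64.5 and 141 CPM in L-type cells (log2 fold change −2.45, SE 0.319, adjusted p = 0.0073 by edgeR).

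Single sensors and receptors differed in level between the classes. Agtr1a, Avpr1b, Sstr1, Vipr2 and Abcc8 had at most 1 UMI in each sum of the lower class. They entered the test through the other class alone and are given as values. Piezo2 was found in 13 of 15 and 43 of 44 EC-type cells, at 2365 and 3757 CPM, whereas 5 and 15 UMIs gave 23 and 91.7 CPM in L-type cells (log2 fold change −5.67, SE 0.303, adjusted p = 2.5e-04 by edgeR). Agtr1a, the type 1 receptor of angiotensin II, was at 276 and 330 CPM in L-type and 5.24 and 2.84 CPM in EC-type cells, from 60 and 54 against 1 and 1 UMIs. Avpr1b, a vasopressin receptor, had 46 and 34 UMIs in 15 of 17 and 10 of 15 L-type cells and none in EC-type cells, at least 38.1-fold higher. Sstr1, a somatostatin receptor, was at 136 and 53.9 CPM in EC-type and 4.61 and 6.11 CPM in L-type cells, from 26 and 19 against 1 and 1 UMIs. Vipr2, a receptor of vasoactive intestinal peptide, had 45 and 25 UMIs in EC-type cells and none in L-type cells, at least 16.4-fold higher. Slc5a1, the sodium-glucose transporter of the apical membrane, was at 120 and 183 CPM in L-type and 26.2 and 39.7 CPM in EC-type cells, from 26 and 30 against 5 and 14 UMIs. It entered the test through the L-type sums alone and is given as values. Abcc8, the regulatory subunit of ATP-sensitive potassium channels, had 31 and 32 UMIs in L-type cells and none in EC-type cells, at least 30.0-fold higher.

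Some serotonin and exocytosis genes were higher in EC-type cells. The 3 serotonin genes called were Ddc, Slc18a1 and Lmx1a, and 4 were not called. The 5 genes of excitability and exocytosis were Rab3c, Snap25, Syt7 and the channel genes Kcnq1 and Scn3a, with 11 not called and Abcc8 on the L side. Slc18a1 was at 446 and 321 CPM in EC-type and 23 and 6.11 CPM in L-type cells, from 85 and 113 against 5 and 1 UMIs. It entered the test through the EC-type sums alone and is given as values. Ddc was at 2098 and 2071 CPM against 627 and 495 CPM (log2 fold change −1.73, SE 0.181, adjusted p = 0.0034 by edgeR), and at 69.1 and 67.0 CPM in the other Epcam cells. Tac1 had 108 and 141 UMIs in EC-type cells (566 and 400 CPM) and 1 and 1 in L-type cells (4.61 and 6.11 CPM). It entered the test through the EC-type sums alone and is given as values. In the other Epcam cells Tac1 was at 5.17 and 4.99 CPM, near its level in L-type cells, which rests on 1 UMI in each library. Rab3c, a small GTPase of secretory vesicles, was at 593 and 1075 CPM in EC-type and 13.8 and 55 CPM in L-type cells (log2 fold change −4.50, SE 0.338, adjusted p = 9.4e-04 by edgeR). Snap25 was at 981 and 1115 CPM against 212 and 220 CPM (log2 fold change −2.10, SE 0.212, adjusted p = 0.0031 by edgeR). Of the granule genes, Scg2, a granin, had 146 and 77 UMIs in L-type and 2 and 1 in EC-type cells, a ratio of 106 with a counting interval of 35.8 to 518. Chgb, another granin, is a rule gene and read without a test, and it had a median of 3.62 and 2.42 UMIs per 10000 in L-type cells and 199 and 136 in EC-type cells.

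Outside the lists, the called genes with the largest differences included several not tied to hormones. Nrg1, a growth factor of the EGF family, had 760 and 945 UMIs in EC-type cells and 5 and 0 in L-type cells, or 3985 and 2681 CPM against 23 and 0. It was carried by 8 of 15 and 18 of 44 EC-type cells, and 1 cell held 50.4% and 24.3% of its EC-type UMIs in the 2 libraries. Sgcd, a sarcoglycan, had 138 and 373 UMIs in EC-type cells and none in L-type cells, at least 119-fold higher, and Slc38a11, an amino acid transporter, had 150 and 290 UMIs and none, at least 103-fold higher. On the L side, Kcnip4, a subunit of potassium channels, had 183 and 38 UMIs against none, at least 105-fold higher. Cck had 152 and 223 UMIs in L-type cells and none in EC-type cells, at least 178-fold higher. Of 51 named or listed genes called here, 28 were not called by DESeq2, among them Cck, Isl1, Abcc8, Sgcd, Slc38a11 and Kcnip4. Under the alternatives run none of the 51 turned in direction where it was tested, and some alternatives did not test all of them. The L-type and EC-type sums held 217004 and 190702 UMIs in tissue 1 and 163613 and 352441 in tissue 2.

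**Figure D3:**
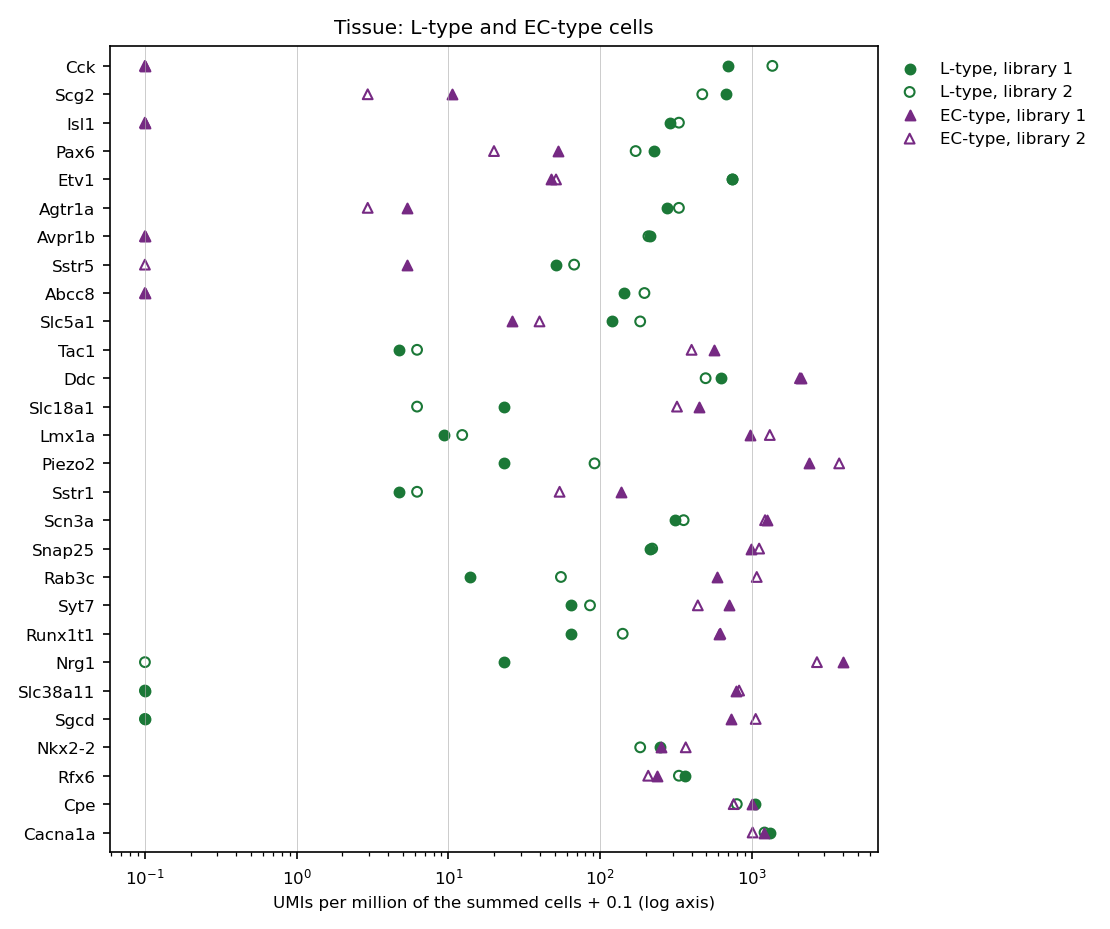
Level of genes in L-type and EC-type cells of tissue, all called between the classes except Nkx2-2, Rfx6, Cpe and Cacna1a, as CPM of summed UMIs plus a small constant on a log axis, with circles for L-type and triangles for EC-type cells, filled for tissue 1 and open for tissue 2. Lmx1a, Piezo2 and Tac1 stand apart on the EC side and Isl1, Avpr1b and Cck on the L side in both libraries.

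D-type cells were few, with 7 and 3 cells and 59239 and 22501 summed UMIs, and are described without a test. Sst, which defined them, was at 13572 and 7022 CPM. Hhex, a homeobox factor of somatostatin cells, was at 641 and 267 CPM in D-type cells, at 9.22 and 141 CPM in L-type cells and at 5.24 and 2.84 CPM in EC-type cells. Isl1 was at 641 and 178 CPM in D-type cells. All 7 and all 3 D-type cells had Pyy, with 9234 and 1067 CPM, and 1 cell held 49.5% of these UMIs in tissue 1. Piezo2 was at 1249 and 533 CPM in D-type cells, between its levels in L-type and EC-type cells. The 7 and 11 cells in no class had, by construction, no Tph1 UMI and little RNA of Sst and of the L genes, and 5 and 7 of them had a UMI of some peptide hormone. Lmx1a was found in 5 of 7 and 8 of 11 of them and Isl1 in 4 and 2. In tissue 2 their median depth was 3999 UMIs, below the 6710 of EC-type cells, so that missed Tph1 UMIs and absence of Tph1 could not be told apart there, and in tissue 1 it was 9027 against 9245.

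The next comparison set the enteroendocrine cells of tissue against those that formed in assembloids under the same rule, 57 in assembloid 1 and 56 in assembloid 2. Of 7818 genes tested on summed UMIs with edgeR, 1172 were higher (15.0%) and 1258 lower (16.1%) in tissue. The cell states were not matched: assembloid 1 had 12 L-type, 26 EC-type and no D-type cells, and assembloid 2 had 6, 30 and 2, with 18 and 14 cells in no class and 1 and 4 with both L genes and Tph1. In these sums fewer cells of a type and less RNA per cell cannot be told apart. Of the 57 cells of assembloid 1, 41 had exactly 3 of the 7 rule genes. The other Epcam cells of tissue and assembloids were compared for the same genes. Of the genes higher in tissue 76.7%, and of those lower 67.6%, also did not overlap in the same direction there. The same share was not counted over all genes tested. These shares, and the list counts of this kind below, are therefore not read as a result.

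**Figure D4:**
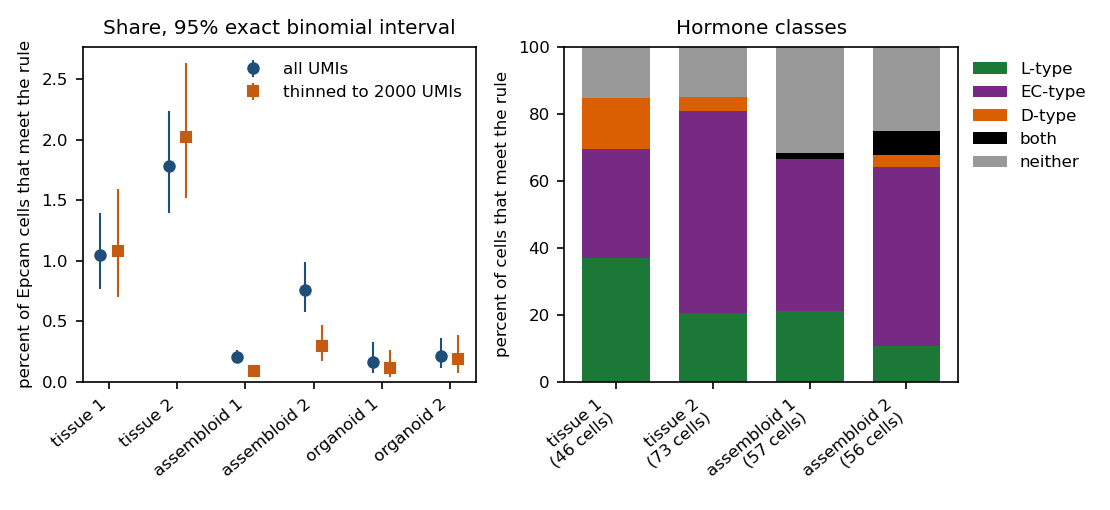
Left, share of Epcam cells that met the enteroendocrine rule in each epithelial library, in percent with 95% exact binomial intervals, from all UMIs and from cells thinned to 2000 UMIs. Right, hormone classes of the enteroendocrine cells of tissue and assembloids in percent of cells. Both tissue libraries lie above both assembloid and both organoid libraries, and tissue 2 holds the largest share of EC-type cells.

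The 3 L cell hormones and Sct were higher in tissue, and Cck and Tac1 lower. Of 9 hormones tested, 4 were higher (Gcg, Insl5, Pyy and Sct) and 3 lower (Cck, Tac1 and Adm) in tissue, and Sst and Iapp were not called, beside 15.0% of all genes higher and 16.1% lower. Adm had 1 and 0 UMIs in tissue against 69 and 114 in assembloids and entered the test through the assembloid libraries alone. In the other Epcam cells the 3 lower hormones were also lower without overlap, and 3 of the 4 higher ones also higher. Sct was at 772 and 332 CPM in tissue and 71.1 and 124 CPM in assembloids (log2 fold change 2.06, SE 0.425, adjusted p = 0.0053 by edgeR). Gcg was at 7806 and 5305 CPM in tissue and 16.0 and 277 CPM in assembloid enteroendocrine cells (log2 fold change 5.14, SE 0.927, adjusted p = 0.0026 by edgeR). Insl5 was at 6937 and 5880 CPM in tissue, had no UMI in assembloid 1 and was at 80.8 CPM in assembloid 2 (log2 fold change 6.88, SE 1.06, adjusted p = 0.0012 by edgeR). Within L-type cells alone, described without a test, Gcg was at 19719 and 18794 CPM in tissue and 61.5 and 3650 CPM in assembloids. It was held by 3 L-type cells of each assembloid library, and 1 cell of assembloid 2 held 217 of its 253 Gcg UMIs. The median depth of L-type cells was 9885 and 8061 UMIs in tissue and 2792.5 and 8497.5 in assembloids. Counts of cells with a gene are not matched for this depth. Pyy was at 31211 and 19992 CPM in tissue and 989 and 5635 CPM in assembloids (log2 fold change 2.62, SE 0.765, adjusted p = 0.0251 by edgeR), a call that was lost without either tissue library (2.23 and 2.89) and in cells thinned to 2000 UMIs, where the difference was −0.0001. Tac1 was at 223 and 247 CPM in tissue and 671 and 1561 CPM in assembloids (log2 fold change −2.65, SE 0.411, adjusted p = 0.0012 by edgeR).

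Cck was found in L-type cells of both groups and, in assembloids, in EC-type cells as well. Its summed level was 311 and 390 CPM in tissue and 449 and 939 CPM in assembloids (log2 fold change −1.40, SE 0.369, adjusted p = 0.0159 by edgeR), and the call was lost without either tissue library. In L-type cells it was seen in 5 of 17 and 10 of 15 cells of tissue, at 700.5 and 1363 CPM, and in 12 of 12 and 5 of 6 cells of assembloids, at 1882 and 5541 CPM. In tissue none of the 59 EC-type cells had a Cck UMI, whereas in assembloids 11 of 26 and 21 of 30 EC-type cells did, at 295 and 336 CPM. The median depth of EC-type cells was 9245 and 6710 UMIs in tissue and 12162.5 and 15891 in assembloids, and these counts are not matched for depth. Cck was also present in the other Epcam cells of assembloids, at 22.3 and 9.16 CPM, against 0.498 and 0.527 in tissue. The difference in Cck within EC-type cells was noted after the values were seen and was not tested.

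Many listed endocrine genes were higher in tissue. Of 21 transcription factors tested 15 were higher in tissue and 1 lower, of 21 excitability genes 14 were higher and none lower, and of 13 granule genes 7 were higher and 1 lower, where 15.0% of all genes were higher. Their median log2 fold changes were 1.88, 1.42 and 1.36, against 0.0029 over all genes tested. Of the genes called higher, 12 of 15 transcription factors, 7 of 14 excitability genes and 5 of 7 granule genes were also higher without overlap in the other Epcam cells of tissue than in those of assembloids, as were 76.7% of all genes called higher. Of the 29 receptors 11 had enough UMIs to be tested, and the 11 were called higher in tissue, 8 of them also without overlap in the other Epcam cells. Their count is not read as a result, since a gene could enter the test through the tissue libraries alone, as with Agtr1a, Avpr1b, Calcrl, Gpr119 and Sstr5, which had 0 to 5 UMIs in each assembloid library. The same filter held for the other lists. Of the 11, Ffar2, Galr1, Gpr119, Olfr78, Sstr1 and Sstr5 lost the call under at least 1 alternative. Piezo2 was at 1077 and 2347 CPM in tissue and 103 and 13 CPM in assembloids (log2 fold change 4.37, SE 0.854, adjusted p = 0.0040 by edgeR). Within EC-type cells it was found in 13 of 15 and 43 of 44 cells of tissue but in 2 of 26 and 1 of 30 cells of assembloids. Agtr1a was at 220 and 122 CPM in tissue, had no UMI in assembloid 1 and 3 UMIs in assembloid 2, a summed ratio of 92.7. Peg3, an imprinted zinc finger gene, was at 340 and 220 CPM against 28.4 and 16.7 CPM (log2 fold change 3.24, SE 0.422, adjusted p = 5.0e-04 by edgeR), though not in cells thinned to 2000 UMIs. Resp18, a granule protein, was at 440 and 369 CPM against 24.9 and 45.5 CPM (log2 fold change 3.05, SE 0.326, adjusted p = 1.6e-04 by edgeR). Neurog3 and Vgf went the other way. Neurog3 was at 7.27 and 3.44 CPM in tissue against 24.9 and 61.3 CPM in assembloids, from 4 and 2 against 14 and 66 UMIs. Vgf, a secreted neuropeptide precursor, was at 7.27 and 15.5 CPM against 35.5 and 90.1 CPM, from 4 and 9 against 20 and 97 UMIs. Both entered the test through the assembloid libraries alone and are given as values.

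Some stress, cycling and other cell type markers differed between the groups in the same sums. Of 12 hypoxia and stress genes 4 were higher in tissue (Fos, Jun, Egr1 and Atf3) and 6 lower (Ldha, Pgk1, Bnip3, Slc2a1, Car9 and Vegfa), where 15.0% of all genes were higher and 16.1% lower. Of 5 cycling genes tested Mki67, Top2a and Birc5 were lower in tissue and 2 were not called. Of 7 goblet markers tested Clca1, Zg16 and Muc2 were higher in tissue and Tff3 lower, with Muc2 at 994 and 397 CPM against 174 and 47.4 CPM. Of 4 colonocyte markers Krt20, Guca2a and Ceacam20 were higher and Car1 lower. Of 7 enteric neuron and glia markers 2 were tested, and both were called higher in tissue. Elavl4 was at 99.9 and 46.4 CPM against 1.78 and 4.64 CPM, and Uchl1 had 17 and 15 UMIs against none. Both had at most 5 UMIs in each assembloid library and entered the test through the tissue libraries alone, so their count is not read as a result. Of the 3 stem and crypt base markers tested Lgr5 and Lrig1 were higher and Slc12a2 lower. Ldha, lactate dehydrogenase A, was at 125 and 131 CPM in tissue and 1362 and 1181 CPM in assembloid enteroendocrine cells (log2 fold change −3.81, SE 0.423, adjusted p = 2.0e-04 by edgeR), and at 455 and 551 against 1467 and 1638 CPM in the other Epcam cells. Fos was at 1751 and 1860 CPM in tissue and 233 and 340 CPM in assembloids (log2 fold change 2.21, SE 0.376, adjusted p = 0.0019 by edgeR), and at 719 and 732 against 228 and 332 CPM in the other cells. These genes differed in the same direction in both cell fractions. Dcn, a fibroblast proteoglycan, had no UMI in the enteroendocrine cells of tissue and was at 146 and 132 CPM in those of assembloids, beside 177 and 193 CPM in the other Epcam cells of assembloids, and Col3a1 and Col1a2 likewise had no UMI in tissue, so these 3 of the 6 stromal markers entered the test through the assembloid libraries alone. Mptx1, a pentraxin-like secreted gene, was at 2529 and 1632 CPM in tissue enteroendocrine cells, at 9155 and 12719 CPM in the other Epcam cells of tissue, and had no UMI in assembloid enteroendocrine cells. The part of RNA from other cells in these differences was not tested. Nor was that of the different dissociation of tissue and assembloids, which cannot be told apart from the group.

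**Figure D5:**
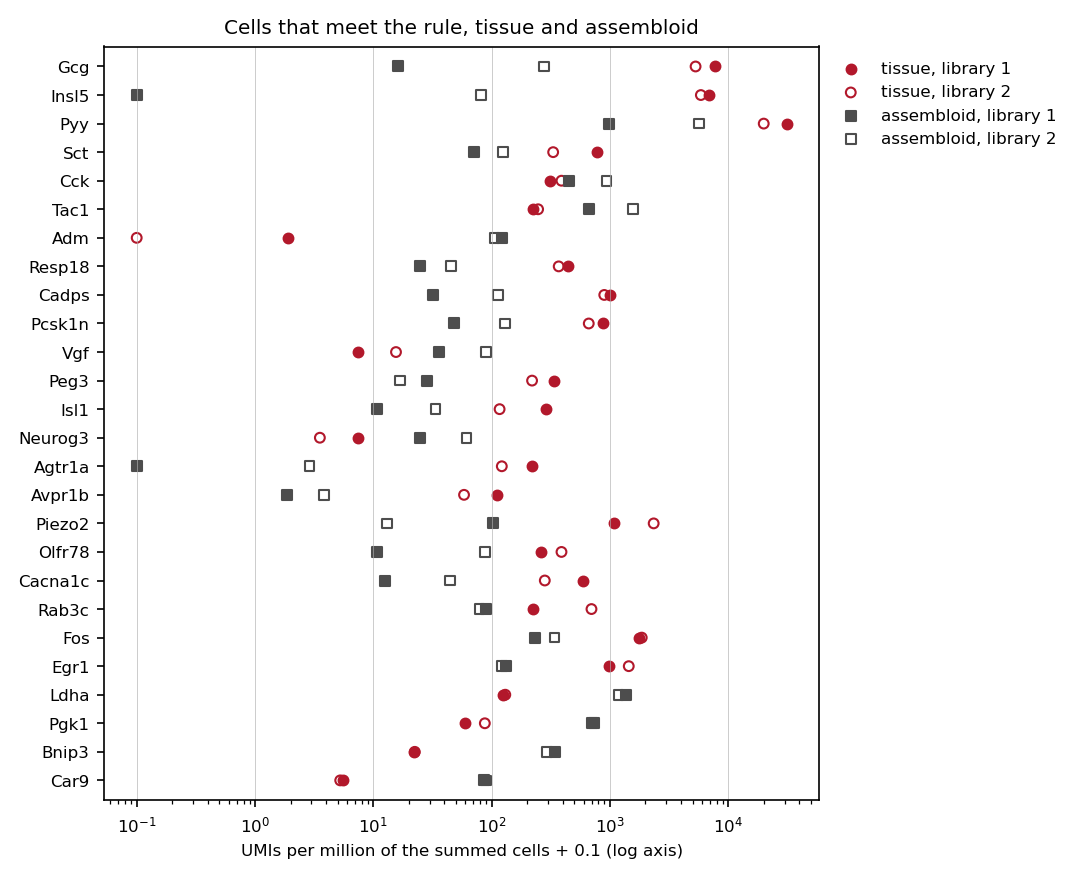
Level of listed and named genes in enteroendocrine cells of tissue and of assembloids, as CPM of summed UMIs plus a small constant on a log axis, with filled symbols for library 1 and open symbols for library 2. Gcg, Insl5 and Piezo2 were higher in both tissue libraries than in both assembloid libraries, and Tac1, Ldha and Neurog3 lower.

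Whether the endocrine difference went beyond that of the other epithelium was tested as an interaction of cell class and group in 1 edgeR fit. It called 1063 genes relatively higher (6.28%) and 1242 lower (7.34%) in tissue enteroendocrine cells out of 16926. Of the excitability genes 13 of 25 were relatively higher and none lower, of the transcription factors 6 of 23 were higher and 2 lower, of the granule genes 5 of 14 were higher and 2 lower, and of the receptors 3 of 25 were higher and 2 lower. Of 9 goblet markers none was relatively higher and 6 were lower, and of 8 colonocyte markers 1 was higher and 3 lower. Of 12 hypoxia and stress genes 7 were relatively higher and 3 lower, and of 5 enteric neuron and glia markers 2 were higher. A gene can be relatively higher here and still lower in tissue in the direct comparison. With a robust prior in edgeR, which lets the spread differ between genes, 13 excitability genes, 5 transcription factors, 3 granule genes and 2 receptors were relatively higher. So were 7 hypoxia and stress genes and 2 neuron and glia markers, while 3 goblet markers were lower. Without the robust prior the fit estimated 1 common spread for all genes, so that no single gene is read from it. With limma on the log2 ratios of the cell classes in each library 0 genes were called, with 4152 at an unadjusted p under 0.05, but that fit made no call in its test on simulated data either.

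Enteroendocrine cells made up 1.05% (0.767 to 1.39%) of Epcam cells in tissue 1 and 1.78% (1.40 to 2.23%) in tissue 2. The same rule found 0.204% and 0.761% in assembloids and 0.166% and 0.214% in organoids, where 8 and 14 cells met it. The mean was 1.41% ± 0.520 (SD, n = 2) in tissue and 0.482% ± 0.394 (SD, n = 2) in assembloids, a difference of 0.931 percentage points with p = 0.33 by an exact two-sided permutation test, the smallest p that 2 against 2 libraries can give. Because detection of 3 genes depends on depth, cells were also thinned to 2000 UMIs, which left out 2249 of 4692 and 1539 of 4310 passing cells of tissue, 7110 of 29410 and 800 of 7722 of assembloids, and 110 of 4872 and 3419 of 8034 of organoids. The thinned shares were 1.08% and 2.02% in tissue, 0.0867% and 0.295% in assembloids and 0.113% and 0.187% in organoids. The tissue libraries stood above the culture libraries on both counts, and 2 libraries a group do not allow a test below 0.33. With a rule of at least 2 of the 7 genes the groups overlapped, since assembloid 2 (1.59%) lay above tissue 1 (1.55%), and the exact permutation test gave p = 0.67.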

How the data were processed

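The deposited files hold raw UMI counts per gene and barcode, made by the authors from 10x 3′ v3 libraries; per the file headers Cell Ranger was 7.1.0 for epithelium and 6.0.1 for stroma, while the submitters' processing notes name Cell Ranger 6 and mm10. Whether intronic reads were counted is not given in the sources used here. Members and gene lists were chosen with earlier results of these data known. Gene names are those of the files, and 78 symbols are shared by more than 1 feature. The filters follow the study's stated limits and left 4692 and 4310 tissue barcodes, fewer than the study gives. Counts were summed per library and cell class and tested with edgeR 4.0.16 (R 4.3.3; TMM, filterByExpr, quasi-likelihood, Benjamini-Hochberg adjusted p under 0.05), with DESeq2 1.42.0 and limma 3.58.1 as alternatives. Sums and exact tests used Python 3.11.15 and scipy 1.17.1. Each fit was first tested on simulated data. Listed genes were named freely; beyond them, 12 called genes per direction could be named, those of largest log2 fold change with an average log2 CPM of at least 5 and no overlap of libraries, and for enteroendocrine against other cells the 20 genes with the highest smaller ratio and at least 50 UMIs in each library. Past the fold means at least 20 UMIs in the endocrine fraction of each library. Genes that define the cells compared were kept in the totals of called genes and left out of list counts and tests, with Chgb described only. Total UMIs were 99133978 and 108834594 in the tissue libraries, and gene positions follow GENCODE in GRCm38. Summed UMIs of the tissue replicates differed beyond the counting error of independent UMIs (chi-square per degree of freedom 2.93), as did those of assembloids (10.7). This measure does not separate the spread between cells from that between libraries. A few genes are not reported here.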

Additional observations from a re-analysis of the deposited data

Results flagged for a closer look

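In the stromal libraries, which no comparison above uses, 4 cells met the enteroendocrine rule, all in stroma 1 among its 1552 Epcam cells (0.258%, 95% exact binomial interval 0.0703 to 0.659%), and none of 274 Epcam cells in stroma 2. They were flagged because they are a signal in data outside the main measurement. Their cause was not tested.

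The difference between tissue and assembloids was itself different in enteroendocrine cells and in the other Epcam cells for 2305 genes by the interaction term in edgeR, which flagged it as an effect that differs between cell classes. Since that fit gave all genes 1 common spread, the count is given without naming genes. With limma on log2 ratios 0 genes were called, and 4152 had an unadjusted p under 0.05, in a fit that made no call in its test on simulated data either.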

How the results depend on the processing

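Each comparison rests on 2 libraries a group and on 46 and 73 cells, so counts of called genes are imprecise, while under the alternatives run the mean share of members stayed higher in tissue than in assembloids (by 0.793 to 1.67 percentage points), although the libraries overlapped at 2 or more rule genes, the L-type, EC-type and D-type shares moved by less than the spread between libraries, and the 519 genes higher than in other cells stayed within 1.5 times. The tissue against assembloid fit called 2430 genes, and 1435 with DESeq2, 1564 without the highest 5% of UMIs, 128 in cells thinned to 2000 UMIs (fewer genes tested) and 1618 in EC-type cells alone. Leaving out 1 library gave 1355 (without tissue 2) to 3310 (without assembloid 2), with 1358 without tissue 1. With a replicate block it called 2604, and the block ended 1 named call, Sstr5. Same-numbered libraries did not deviate together (correlation −0.0345), so the numbers were not taken as pairs. Of its 111 named or listed genes, the log2 fold change of Pyy turned to −0.0001 in thinned cells and −0.061 in EC-type cells alone. In thinned cells 22 of these genes kept the call and 19 lost it, and in EC-type cells alone 76 kept it and 11 lost it. The remaining genes were not tested there. No other direction turned among the values available, and 152 of them were no longer called. The interaction called 2305 genes, and 1450 with DESeq2, 1517 without the highest 5% of UMIs, 122 thinned, 1029 to 2355 without 1 library (1029 without tissue 1, 1182 without tissue 2), and 0 with limma on log2 ratios, where 4152 genes had an unadjusted p under 0.05. The limma fit made no call in its test on simulated data either. That test used 1 set spread for all genes and does not measure what the fit could call here, so nothing is read from this count of 0. The L-type against EC-type fit called 272 genes, and 108 with DESeq2, 560 without a filter, 530 at 4 or more rule genes, 416 at 5% mitochondrial UMIs, 566 without the highest 5% of UMIs, 566 at an L threshold of 50, 477 at 2 Tph1 UMIs and 400 with no replicate block. Without 1 library it has no residual degrees of freedom, so its genes were given values and no test, and of 51 values 30 (without tissue 1) and 35 (without tissue 2) moved by more than the SD between the libraries. Cells in no class averaged 15.1% of members, 11.3% at an L threshold of 5, 20.5% at 50, 19.3% at 2 Tph1 UMIs and 12.2% at 4 or more rule genes. The cause of these changes was not tested, and the EC-type, limma and robust-prior alternatives, the one without assembloid cells of exactly 3 rule genes and those of the 519 genes were chosen after seeing the data.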
